A study of Rattus norvegicus with 8 samples.

Results

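The colon of rats fed cocoa fiber (CF diet) was compared with the colon of rats fed inulin (I diet), to ask how alike the gene expression was under these fiber sources. The rats were taken by the diet label of each array channel. The label gave 4 CF rats and 4 I rats, which are 8 of the 16 rats in the series. All 16 rats were female Wistar rats, labelled as 6 weeks old, and each had received its diet for 3 weeks. The CF diet carried the soluble and insoluble fiber of a cocoa diet with very little of its polyphenols. The I diet carried the same amount of soluble fiber in the form of inulin from chicory. Both diets had an AIN-93M base and were equal in energy to the standard diet (REF) and the cocoa diet (C10), each of which was given to 4 further rats. The RNA came from a piece of the whole wall of the middle colon, so epithelium, muscle, connective tissue and lymphoid tissue were measured together.

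Soluble fibers are fermented by the bacteria of the colon to the short-chain fatty acids acetate, propionate and butyrate. Colonocytes take these acids up through dedicated transporters, burn butyrate in their mitochondria and sense the acids through receptors on the cell surface. Inulin is a chain of fructose units that is fermented almost completely, whereas cocoa fiber also holds insoluble cell wall material. The study gives both diets the same proportion of insoluble fiber as the standard diet. It came from cellulose in the I diet, and from cellulose and cocoa fiber in the CF diet. Fermentation of inulin or cocoa fiber can change the uptake of minerals by the epithelium.

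The RNA was hybridised to 8 two-colour arrays of the same design on 1 slide, with a rat in each dye. A CF rat and an I rat shared an array in 2 cases (CF rat 3 with I rat 1 on array 5, and CF rat 4 with I rat 2 on array 6). CF rats 1 and 2 shared arrays 3 and 4 with C10 rats, and I rats 3 and 4 shared arrays 7 and 8 with REF rats. Each diet had 2 rats in each dye. The study's methods speak of dye swaps of each sample, whereas the labels give every rat a single dye on a single array, and the labels were followed. The animal number of CF rat 4 lies outside the run of numbers of the other CF rats, and the rat was used as labelled. Between 72.0% and 77.7% of the spots were well above background in the CF rats and between 70.5% and 77.8% in the I rats. Levels are given below as normalised log2 signals of a gene's probe, with the fitted dye effect removed, so that a difference of 1 is a 2-fold change. They compare rats within a gene and not genes with each other. A difference in brackets or after "by" is the fitted log2 FC of CF over I (CF minus I, with its SE and 95% interval where given). The fit also uses the other rat on each array, so a fitted difference can depart from the plain difference of the means. In such tissue pieces, fewer cells of a type and less RNA per cell cannot be told apart.

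No gene passed the test between the CF and the I group. Of 19901 genes tested, 0 (0% of all) passed the limits used here, an adjusted p below 0.05 in limma with at least a 2-fold change, and the smallest adjusted p was 1. A rank product test over the 16 CF to I ratios, at the same limits on false positives and fold, gave 16 genes, 5 higher in CF and 11 higher in I. These ratios reuse the same rats, while the test treated them as independent, so its estimate of false positives can be too low. Without CF rat 4, 0 genes passed in limma, 366 reached an unadjusted p below 0.05 and 15 differed at least 2-fold. At an unadjusted p below 0.05 there were 562 genes (2.82%), of which 331 were higher in CF and 231 higher in I. That share is below the 0.05 of genes that such a threshold marks on average where no gene differs. The median size of a difference was 0.06 on the log2 scale, a 1.04-fold change. From the 1st to the 99th percentile, the differences ran from -0.37 to 0.31. The level was higher in CF for 10268 genes, which is 51.6%, close to an even split.

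The precision was enough to bound most genes. The 95% interval of the difference lay inside a 2-fold change in either direction for 19496 genes (98.0%) and inside a 1.5-fold change for 18291 genes (91.9%). For the remaining genes the 4 rats per diet did not allow such a bound. The 405 genes without a 2-fold bound had a median SD of 0.78 over the 8 rats, against 0.14 for the genes with one. They held 22 of the 49 tested genes of the B cell, T cell and lymphoid follicle lists, and 39 of them reached an unadjusted p below 0.05. The shares of genes bounded within 2-fold and 1.5-fold depended on the background correction. They were 95.4% and 81% with normexp offset 0, and 88.7% and 67.8% with processed signals.

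**Figure D1:**
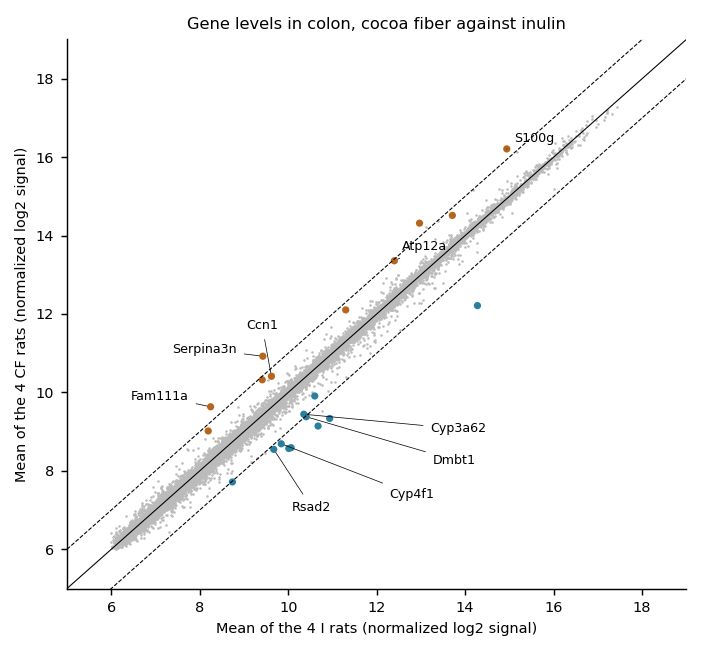
Mean normalised log2 signal of the 4 I rats (x axis) against that of the 4 CF rats (y axis), with 1 grey point per gene for 19901 genes, the diagonal drawn solid and a 2-fold distance dashed. Orange points are the 10 genes fitted at least 2-fold higher in CF and blue points the 11 fitted at least 2-fold higher in I, those with a symbol are named, and nearly all other genes lie along the diagonal.

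The 6 pairs of diets were fitted together, and CF against I had the fewest 2-fold differences and the lowest share of genes at an unadjusted p below 0.05. At least 2-fold differences were fitted for 21 genes between CF and I, against 45 between CF and REF, 36 between I and REF, 73 between C10 and CF, 132 between C10 and I, and 167 between C10 and REF. The share of genes at an unadjusted p below 0.05 was 6.36% for CF against REF and 5.73% for I against REF, with 0 genes passing in each. The comparisons with C10 had shares of 13.5% against CF, 12.2% against I and 17.2% against REF, and 20, 32 and 40 genes passed. The median interval reached 0.20 to either side for CF against I, so its precision matched that of the other pairs that share 2 arrays, while C10 and I rats, like CF and REF rats, never shared an array. These comparisons reuse the same rats and are not independent, and the differences between the counts were not tested.

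**Figure D2:**
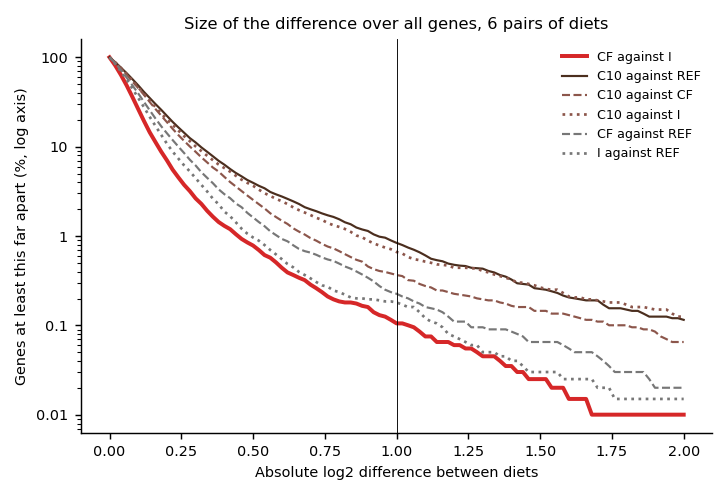
Share of the 19901 genes (y axis, percent on a log axis) whose fitted difference is at least the absolute log2 size on the x axis, with 1 curve per pair of diets and a vertical line at a 2-fold change. At that line the curve of CF against I (red) is the lowest of the 6, with 21 genes against 167 for C10 against REF.

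Taken over all pairs, single rats differed from each other by as much within a diet as between the diets. The distance between 2 rats was taken as the SD of their difference over all genes. It ran from 0.20 to 0.41 over the 16 pairs of a CF and an I rat (median 0.29), from 0.29 to 0.45 over the 6 pairs within CF (median 0.34) and from 0.23 to 0.38 over the 6 pairs within I (median 0.30). The closest of these pairs was CF rat 3 and I rat 1, which shared array 5. Between 75 and 591 genes differed at least 2-fold in a pair of a CF and an I rat, between 205 and 626 in a pair of CF rats, and between 84 and 477 in a pair of I rats. Distance also varied with the arrays. In pairs of a CF and an I rat, the median distance was 0.25 where both arrays were odd or both even, and 0.38 otherwise. These medians were 0.32 and 0.36 within CF and 0.26 and 0.34 within I. The between-diet median was thus the lowest for like arrays and the highest for unlike ones. Like arrays made up 8 of the 16 pairs between the diets, but 2 of the 6 within each diet. CF rat 1, on an odd array, followed the pattern of odd and even arrays for I rat 3 (0.24) but not for CF rat 3 or I rat 1. It lay closer to every rat on an even array (0.28 to 0.33) than to CF rat 3 or I rat 1 (both 0.35).

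The genes that varied most between rats were markers of lymphoid tissue and of position along the gut. Ccl19, a chemokine that draws T cells and dendritic cells into lymphoid tissue, had levels of 12.09, 7.78, 14.84 and 7.88 in CF rats 1 to 4 and of 14.22, 7.90, 12.94 and 8.01 in I rats 1 to 4. It was high in every rat on an odd array and low in every rat on an even array, whatever the diet, and the fitted difference was 0.19 (interval -3.23 to 3.61), with a sign that turned in several other settings. Hoxb13, a transcription factor of the most posterior gut, was low in CF rat 2 (9.86) and I rat 2 (10.11) and lay between 12.77 and 14.22 in the other 6 rats. Sval1, a seminal vesicle antigen-like gene, was low in the same rats. With odd against even arrays as a further term in the fit, 0 genes passed, 494 reached an unadjusted p below 0.05 and 19 differed at least 2-fold.

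**Figure D3:**
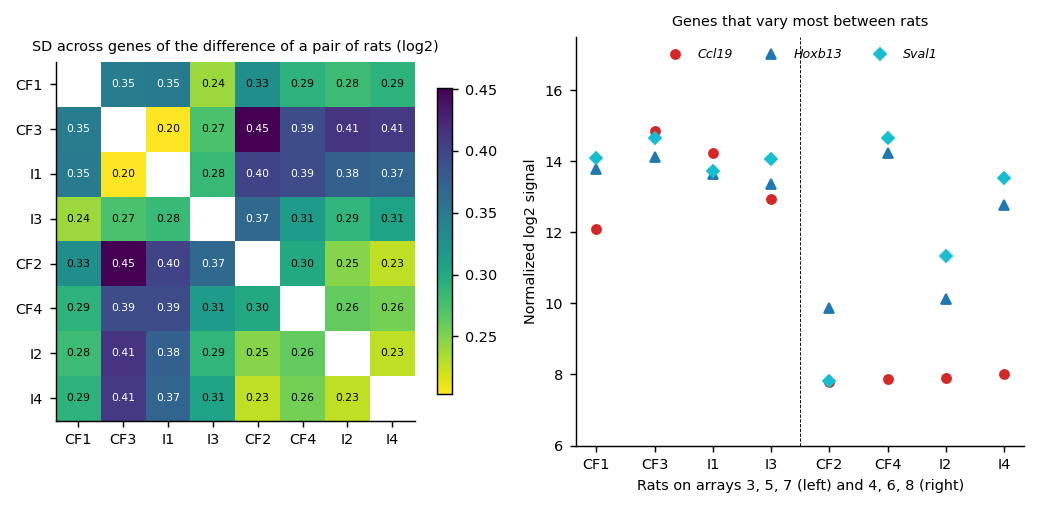
Left, the distance between each pair of the 8 CF and I rats (SD over all genes of the difference in log2 signal, given in each cell and by colour), from 0.20 to 0.45. Right, the normalised log2 signal (y axis) of 3 genes that vary most between rats in the same 8 rats (x axis), with rats on odd arrays left of the dashed line and rats on even arrays right of it, where Ccl19 is low in rats of both diets.

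Among the 21 genes fitted at 2-fold or more, 10 (0.0502% of all genes) were higher in CF and 11 (0.0553%) higher in I. Of these, 9 had a gene symbol, 6 had an unadjusted p below 0.05, and 1 did not overlap between the diets. Most were genes whose levels varied widely among rats of the same diet.

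S100g, the vitamin D-dependent calcium-binding protein calbindin-D9k, had the largest difference with a symbol. Its levels were 16.32, 14.97, 16.98 and 16.56 in CF rats 1 to 4 and 13.65, 14.62, 15.39 and 16.10 in I rats 1 to 4. I rats 1 and 2 lay below every CF rat, and I rats 3 and 4 lay within the CF range. The fitted difference was 1.67 (SE 0.66, interval 0.25 to 3.09), and it came to 1 without I rat 1, 0.76 without array 5 and 2.64 on the 2 arrays that pair the diets.

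Fam111a, a protease that acts at DNA replication forks, had levels of 7.64, 9.79, 9.54 and 11.58 in CF and of 7.86, 7.65, 7.54 and 9.94 in I. CF rat 4 was the highest and the groups overlapped, with a fitted difference of 1.53 (SE 0.78) that came to 0.55 without CF rat 4 and 0.88 without I rat 2. Ccn1, a matrix protein made rapidly after stimulation of stromal cells, had levels of 9.64, 9.50, 10.81 and 11.70 in CF and of 10.76, 9.22, 8.91 and 9.59 in I. Here too CF rat 4 was the highest, and the difference of 1.03 (SE 0.45) came to 0.38 without that rat and 1.58 without I rat 1. Serpina3n, a secreted inhibitor of serine proteases, had levels of 12.23, 12.24, 10.01 and 9.21 in CF and of 8.67, 9.64, 7.76 and 11.63 in I, with a difference of 1.13 (SE 0.72). CF rats 1 and 2 were the high ones, and I rat 4 came next. The difference came to 0.69 without CF rat 1, 0.75 without I rat 3, 1.91 without CF rat 4 and 0.45 on the 2 arrays that pair the diets.

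Atp12a, the colonic proton-potassium pump, had levels of 14.60, 9.82, 14.54 and 14.47 in CF and of 13, 9.25, 13.46 and 13.88 in I. It was low in CF rat 2 and I rat 2, the same rats in which Hoxb13 was low. Its difference of 1.29 (SE 1.45) turned to -0.35 without I rat 2 and ran from there to 2.63 (without CF rat 2) with 1 rat left out.

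On the I side, the difference was -1.59 (SE 1.12) for Cyp4f1, a fatty acid and leukotriene hydroxylase, -1.35 (SE 0.58) for Rsad2, an antiviral protein induced by interferon, -1.19 (SE 0.57) for Dmbt1, a scavenger protein of mucosal surfaces, and -1.07 (SE 0.39) for Cyp3a62, a cytochrome P450 of the intestine. Rsad2 had levels of 9.55, 10.08, 7.17 and 7.40 in CF and of 9.55, 9.27, 8.83 and 11.03 in I. CF rats 3 and 4 were the low ones, and CF rats 1 and 2 lay within the I range. Cyp3a62 had levels of 10.52, 9.83, 9.50 and 7.92 in CF and of 10.35, 10.24, 10.77 and 10.05 in I, so that CF rat 4 was the lowest. Without CF rat 4 its difference was -0.39. Without CF rat 3 those of Cyp4f1 and Rsad2 were -0.65 and -0.72, and that of Cyp4f1 was -2.60 without CF rat 2, -0.94 without CF rat 4 and -0.86 without I rat 2. That of Dmbt1 was -0.73 without CF rat 4 and -0.68 without I rat 2.

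The largest differences of all belonged to transcripts without a current symbol. ENSRNOT00000066209 had levels of 12.62, 12.41, 12.76 and 11.07 in CF and of 16.08, 15.15, 13.10 and 12.78 in I. All 4 CF rats lay below all 4 I rats, although the highest CF rat lay close to the lowest I rat, and the difference was -2.13 (SE 0.82), or -1.37 without I rat 1. NM_001008871 had a difference of -2.14 (SE 1.05) with overlapping groups, and among those higher in CF NM_022388 had a difference of 1.44 (SE 1). The first came to -1.11 without CF rat 3, and the second to 0.60 without I rat 2, 0.87 without CF rat 4 and 2.31 without CF rat 2.

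A few genes with small differences kept the groups fully apart. All 4 CF rats lay above all 4 I rats for 211 genes (1.06%) and below them for 113 genes (0.568%). Vsig2, an immunoglobulin-domain protein of the cell surface, had levels of 10.89, 11.38, 10.61 and 10.89 in CF and of 11.64, 11.61, 11.69 and 11.58 in I. The I rats were tightly grouped and all above the highest CF rat. The difference was -0.76 (SE 0.15, interval -1.08 to -0.45), with an adjusted p of 1 in limma. Without CF rat 2, the highest of its group, the difference was -0.92 with an adjusted p of 0.0168, still less than 2-fold. The levels ran from 11.35 to 11.71 in the REF rats and from 10.86 to 11.38 in the C10 rats, so the I rats lay near REF and the CF rats near C10.

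Ddc, the decarboxylase that makes serotonin and dopamine from their amino acid precursors, had levels of 12.44, 12.44, 11.98 and 12.00 in CF and of 12.63, 12.98, 12.50 and 12.66 in I. The groups did not overlap, and the difference was -0.60 (SE 0.13). The REF rats lay between 12.66 and 13 and the C10 rats between 11.68 and 12.14. Kiaa0319, a membrane protein known from neurons, was lower in CF by 0.46 (difference -0.46, SE 0.11), and Mpdu1, which takes part in the use of mannose for glycosylation, by 0.26 (difference -0.26, SE 0.07). Higher in CF without overlap were Psmc5, an ATPase of the proteasome (difference 0.20, SE 0.05), and Hirip3, which binds histones (difference 0.31, SE 0.07).

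**Figure D4:**
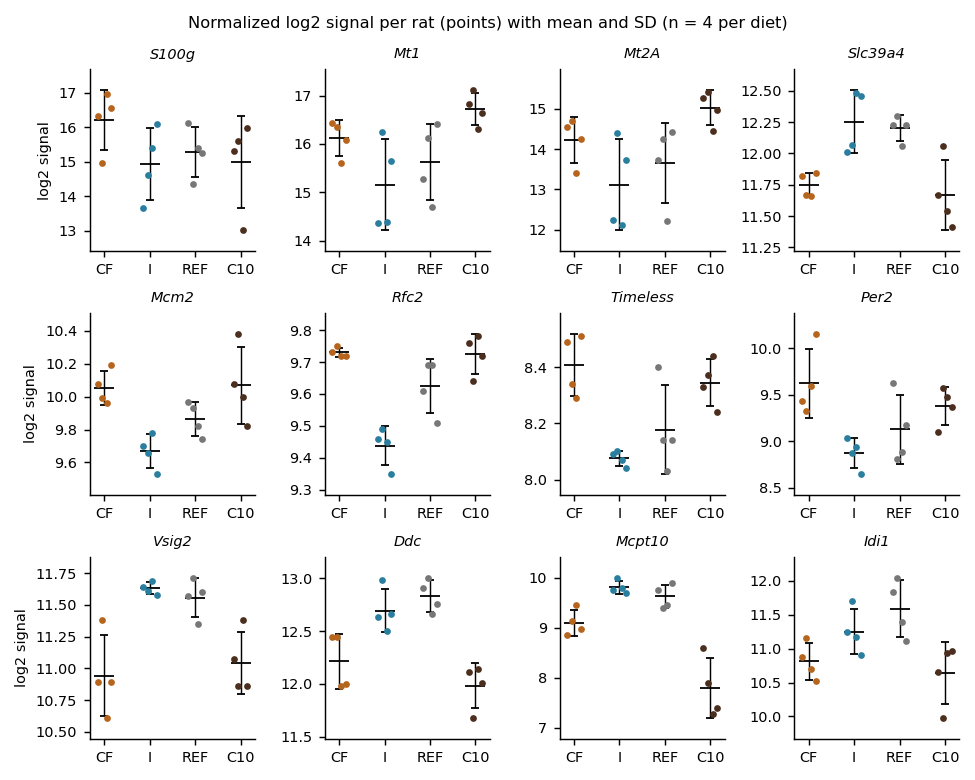
Normalised log2 signal (y axis, a scale of its own in each panel) of 12 genes in the 4 rats of each diet (x axis), with 1 point per rat, a line at the mean and bars for the SD. Vsig2 and Ddc lie lower in all CF rats than in all I rats and Mcm2 and Rfc2 higher, whereas the groups overlap for S100g, Mt1 and Mt2A.

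Of the 20 tested genes of the calcium, iron and zinc list, 13 were higher in CF, the median difference was 0.05 (0.00 over all genes), and 4 had an unadjusted p below 0.05, namely S100g, Mt1, Mt2A and Slc39a4, where 2.82% of all genes did. The list as a whole thus lay close to 0, Mt1 and Mt2A were picked after their values were known, and Mt3, a further metallothionein, had a difference of -0.31. The metallothioneins bind zinc and other metals in the cytosol, and their transcription follows the zinc supply through metal response elements in the promoter. Slc39a4 is the zinc importer of the gut epithelium, whose level is known to go up when zinc is scarce. The promoters of both metallothioneins are shown because these elements are dense in them. The capitals mark each match to the core TGCACNC or TGCGCNC on either strand, in the 300 bases around the start, most of them upstream of it, in RefSeq's GRCr8 annotation (Mt1 at chr19:10832926-10833225 and Mt2A at chr19:10838659-10838958, both on the minus strand, 5′ to 3′).
Mt1: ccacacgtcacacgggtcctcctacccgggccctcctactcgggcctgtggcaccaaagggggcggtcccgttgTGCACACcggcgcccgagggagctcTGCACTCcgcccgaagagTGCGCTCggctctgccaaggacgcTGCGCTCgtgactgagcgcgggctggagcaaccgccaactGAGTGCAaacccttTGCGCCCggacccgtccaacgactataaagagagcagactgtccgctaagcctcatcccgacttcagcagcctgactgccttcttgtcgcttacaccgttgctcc
Mt2A: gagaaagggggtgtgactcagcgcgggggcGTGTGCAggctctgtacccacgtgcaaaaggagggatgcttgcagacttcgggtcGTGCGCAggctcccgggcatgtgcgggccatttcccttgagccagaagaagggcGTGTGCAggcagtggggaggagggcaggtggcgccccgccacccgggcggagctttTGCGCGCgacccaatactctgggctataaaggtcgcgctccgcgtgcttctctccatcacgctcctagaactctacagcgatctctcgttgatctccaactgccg
There were 6 matches in the Mt1 window and 4 in the Mt2A window. At least 1 match lay in 24.2% of 33469 rat promoters of that length, at least 4 in 0.439% and at least 6 in 0.0388%. A match describes letters and not a bound site.

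Mt1 had levels of 16.44, 16.36, 15.61 and 16.08 in CF rats 1 to 4 and of 14.36, 16.24, 14.39 and 15.65 in I rats 1 to 4. Mt2A had levels of 14.55, 14.69, 13.41 and 14.25 in CF and of 12.23, 14.40, 12.12 and 13.72 in I. I rats 1 and 3 were the low ones for both genes, and I rats 2 and 4 lay near or within the CF range. The differences were 0.91 (SE 0.35) and 0.98 (SE 0.43), both with an adjusted p of 1 in limma, and they came to 1.40 and 1.51 without I rat 2 and to 0.54 and 0.52 on the 2 arrays that pair the diets. The C10 rats lay between 16.31 and 17.11 for Mt1 and the REF rats between 14.70 and 16.41. Metallothionein copies are alike in sequence, so signal shared between the probes was not tested.

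Slc39a4 had levels of 11.82, 11.67, 11.66 and 11.84 in CF and of 12.01, 12.07, 12.48 and 12.46 in I. All CF rats lay below all I rats, by a difference of -0.44 (SE 0.12). The REF rats lay between 12.06 and 12.30, with the I rats, and the C10 rats between 11.41 and 12.06. None of these genes passed the test.

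Genes of DNA replication lay a little higher in CF. The list of 42 tested genes was drawn up after Rfc2, Chaf1b, Mcm2 and Timeless had appeared among the genes that separate the diets, so its counts are a description. In it, 36 genes were higher in CF, against 51.6% of all genes, with a median difference of 0.14. All 13 with an unadjusted p below 0.05 (2.82% over all genes) were higher in CF, and 9 were higher in all CF rats than in all I rats (1.06% over all genes). The largest difference of the list ran the other way, at -0.50 for Rpa3, a subunit of the single-strand binding protein RPA. The mean level over the list ran from 9.16 to 9.24 in the CF rats, from 8.95 to 9.10 in the I rats, from 9.05 to 9.22 in the REF rats and from 9.13 to 9.30 in the C10 rats. The I rats were thus the low group, and REF overlapped with both.

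Rfc2, a subunit of the clamp loader, had levels of 9.73, 9.75, 9.72 and 9.72 in CF and of 9.46, 9.49, 9.45 and 9.35 in I, a difference of 0.27 (SE 0.05, interval 0.16 to 0.39). Mcm2, a subunit of the replicative helicase, had levels of 10.08, 9.99, 9.96 and 10.19 in CF and of 9.70, 9.66, 9.78 and 9.53 in I, a difference of 0.41 (SE 0.09). Chaf1b, which deposits histones behind the fork, had levels of 10.34, 10.20, 10.15 and 10.28 in CF and of 9.98, 9.81, 9.80 and 9.50 in I, a difference of 0.43 (SE 0.10). The rats of a diet lay close together in each of these genes, and the groups did not overlap. The differences were 0.31 (SE 0.07) for Timeless, which protects forks, 0.35 (SE 0.09) for the helicase subunit Mcm6, and 0.25 (SE 0.07) for Pcna, the sliding clamp.

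The other genes of cell division were not higher in CF. In the proliferation list, which mixes replication genes with further cell cycle genes, 18 genes were tested and 4 were higher in CF, namely Mcm2, Mcm3, Mcm6 and Pcna, all of them replication genes. The other 14 were higher in I, and the median difference of the list was -0.10. The difference between these groups of genes was not tested.

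Replication genes are switched on at the entry into S phase by E2F factors, and the promoters of Mcm2, Timeless and Mcm6 are shown for the E2F sites they carry. The capitals mark each match to TTTCCCGC, TTTGGCGC, TTTCGCGC or TTTGCCGC on either strand, where matches can overlap in a palindrome (GRCr8, Mcm2 at chr4:122918045-122918344 on the minus strand, Timeless at chr7:1239200-1239499 on the plus strand and Mcm6 at chr13:42404303-42404602 on the minus strand, 5′ to 3′).
Mcm2: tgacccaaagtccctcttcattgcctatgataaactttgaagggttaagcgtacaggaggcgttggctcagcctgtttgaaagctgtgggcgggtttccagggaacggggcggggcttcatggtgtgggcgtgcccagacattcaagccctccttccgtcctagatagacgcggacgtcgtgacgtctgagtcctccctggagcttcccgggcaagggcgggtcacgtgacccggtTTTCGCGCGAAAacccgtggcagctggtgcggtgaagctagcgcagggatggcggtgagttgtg
Timeless: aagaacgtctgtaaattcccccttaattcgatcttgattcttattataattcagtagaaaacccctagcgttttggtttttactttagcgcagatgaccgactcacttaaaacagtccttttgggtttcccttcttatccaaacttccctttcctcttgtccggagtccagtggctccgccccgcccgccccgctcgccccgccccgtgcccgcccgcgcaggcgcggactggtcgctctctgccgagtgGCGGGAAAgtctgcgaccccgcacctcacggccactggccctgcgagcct
Mcm6: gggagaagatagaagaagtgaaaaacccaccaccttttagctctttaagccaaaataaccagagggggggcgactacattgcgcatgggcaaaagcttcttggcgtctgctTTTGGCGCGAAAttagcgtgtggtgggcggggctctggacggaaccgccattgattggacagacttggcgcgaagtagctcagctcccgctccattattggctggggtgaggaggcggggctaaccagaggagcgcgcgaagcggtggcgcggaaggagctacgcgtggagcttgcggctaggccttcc
Of the 36 tested replication genes with a promoter entry, 19 (52.8%) held such a site, against 2.14% of all 33469 promoters. The share belongs to the list as known replication genes and not to the diets.

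Genes of the circadian clock were put in a list that was likewise drawn up after values were seen. Of 14 tested, 10 were higher in CF, with a median difference of 0.13. Per2, a repressor in the clock loop, had levels of 9.43, 9.32, 9.59 and 10.15 in CF and of 9.03, 8.87, 8.94 and 8.65 in I, without overlap and with a difference of 0.76 (SE 0.20). Cry1, its partner, had a difference of 0.41 (SE 0.14), and these came to 0.50 and 0.24 without CF rat 4. Dbp, an output gene, had a difference of 0.32 (SE 0.11). Nr1d1, the nuclear receptor REV-ERB alpha, went the other way at -0.55 (SE 0.17), with levels of 6.69, 6.60, 6.46 and 6.71 in CF and of 6.62, 7.29, 7.34 and 7.67 in I. The CF levels lay near the lowest signals marked well above background in the CF and I rats (5.96 to 6.21). The difference for Nr1d1 came to -0.955 with normexp offset 0, -1.305 with processed signals and -0.369 on the 2 arrays that pair the diets. The hour at which each colon was collected is not given in the sources used here and was not tested.

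Genes for the uptake and sensing of short-chain fatty acids were, on the whole, a little lower in CF. Of 10 tested, 2 were higher in CF and the median difference was -0.18. Slc5a8, the sodium-coupled transporter of butyrate, was the only one with an unadjusted p below 0.05. Its levels were 9.53, 9.17, 8.90 and 9.12 in CF and 9.52, 9.53, 9.56 and 9.71 in I. CF rat 1 lay among the I rats and the other CF rats below them, with a difference of -0.43 (SE 0.11). Slc16a1, the monocarboxylate transporter MCT1, had a difference of -0.05 (interval -0.34 to 0.24), which bounds it within a 1.5-fold change. In the respiratory chain, where these fuels are burnt, all 29 tested subunits had intervals inside a 1.5-fold change, 16 were higher in CF, and the median difference was 0.01.

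Genes of sterol synthesis had lower levels in CF, without passing the test. Of 20 tested genes of the pathway, 2 were higher in CF (51.6% over all genes), the median difference was -0.17, and 4 had an unadjusted p below 0.05 (2.82% over all genes). Idi1, which isomerises isopentenyl diphosphate, had levels of 10.88, 11.16, 10.70 and 10.52 in CF and of 11.24, 11.70, 11.17 and 10.90 in I, a difference of -0.67 (SE 0.22). The CF rats were lower on average and the groups overlapped. The difference was -0.51 (SE 0.24) for Hmgcs1, which makes HMG-CoA, and -0.36 (SE 0.16) for Sqle, the squalene epoxidase, or -0.27 and -0.23 without I rat 2. The mean level of the list ran from 10.51 to 10.87 in CF, from 10.67 to 11.07 in I, from 10.69 to 11.17 in REF and from 10.50 to 11 in C10.

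Markers of mast cells lay lower in CF than in I. Of 16 tested genes of the list, 4 were higher in CF and the median difference was -0.16. The mean level of the list ran from 8.29 to 8.58 in the CF rats and from 8.71 to 8.76 in the I rats, without overlap, from 8.56 to 8.83 in the REF rats and from 7.34 to 7.98 in the C10 rats. The CF rats thus lay between I and C10. In 5 genes, all of them mast cell proteases but Hdc, the histamine-forming enzyme, each CF rat lay below each I rat, as in 0.568% of all genes. Mcpt8l2 had levels of 7.58, 7.92, 8.32 and 7.96 in CF and of 8.61, 8.72, 8.61 and 8.51 in I, a difference of -0.57 (SE 0.15). Mcpt10 had levels of 8.85, 9.13, 9.45 and 8.97 in CF and of 9.75, 9.99, 9.79 and 9.69 in I, a difference of -0.59 (SE 0.21). These proteases form a family of near-identical genes whose probes may share signal. Fcer1a, the IgE-binding chain of the mast cell receptor, had a difference of 0.04 (interval -0.20 to 0.28).

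Among the other immune lists, that of plasma cell and IgA genes lay lower in CF, and the rest differed little or rested on spread. All 12 tested genes of the plasma cell and IgA list were higher in I, with a median difference of -0.30, none of them with an unadjusted p below 0.05. Its mean level ran from 9.52 to 9.75 in CF and from 9.68 to 10.26 in I. Of 12 tested MHC class II genes, 2 were higher in CF with a median of -0.07. Of 26 interferon response genes, Rsad2 was the only one with an unadjusted p below 0.05. For 17 macrophage genes, the mean level ran from 9.57 to 9.74 in CF and from 9.52 to 9.75 in I, so these ranges nearly coincided.

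Immediate-early and stress response genes were higher in CF in 21 of 24 cases, with a median difference of 0.16. Nr4a1, a nuclear receptor induced within minutes of stimulation, had levels of 9.92, 9.85, 10.81 and 11.44 in CF and of 10.34, 9.85, 10.06 and 9.66 in I. CF rats 3 and 4 were high and CF rats 1 and 2 lay within the I range, with a difference of 0.78 (SE 0.30) that came to 0.39 without CF rat 4. Fos, the classic member, had a difference of -0.01 (interval -0.34 to 0.32). The mean level of the list ran from 9.61 to 10.16 in CF, from 9.57 to 9.79 in I and from 9.97 to 10.18 in REF.

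The lists of the wall and vessels gave small medians. Fibroblast and matrix genes were higher in CF in 13 of 15 cases (median 0.17) and endothelial genes in 10 of 11 (median 0.05), with mean levels of 8.56 to 8.60 in CF and 8.45 to 8.55 in I for the endothelium. Erythrocyte genes were higher in CF in 8 of 10 cases (median 0.19), with mean levels of 9.66 to 10.30 in CF against 9.57 to 9.92 in I. No fibroblast or erythrocyte gene reached an unadjusted p below 0.05, the ranges of the erythrocyte list overlapped, and the part of blood and stroma in the other results was not tested. Enteroendocrine genes were higher in CF in 4 of 15 cases (median -0.17), Ddc among the other 11, and sodium and proton-potassium transport genes in 12 of 15 (median 0.10). Absorptive colonocyte genes had mean levels of 12.42 to 13.17 in CF and 12.54 to 13.09 in I, which places colon epithelium in every piece, and smooth muscle genes had mean levels of 12.43 to 12.81 and 12.32 to 12.71.

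**Figure D5:**
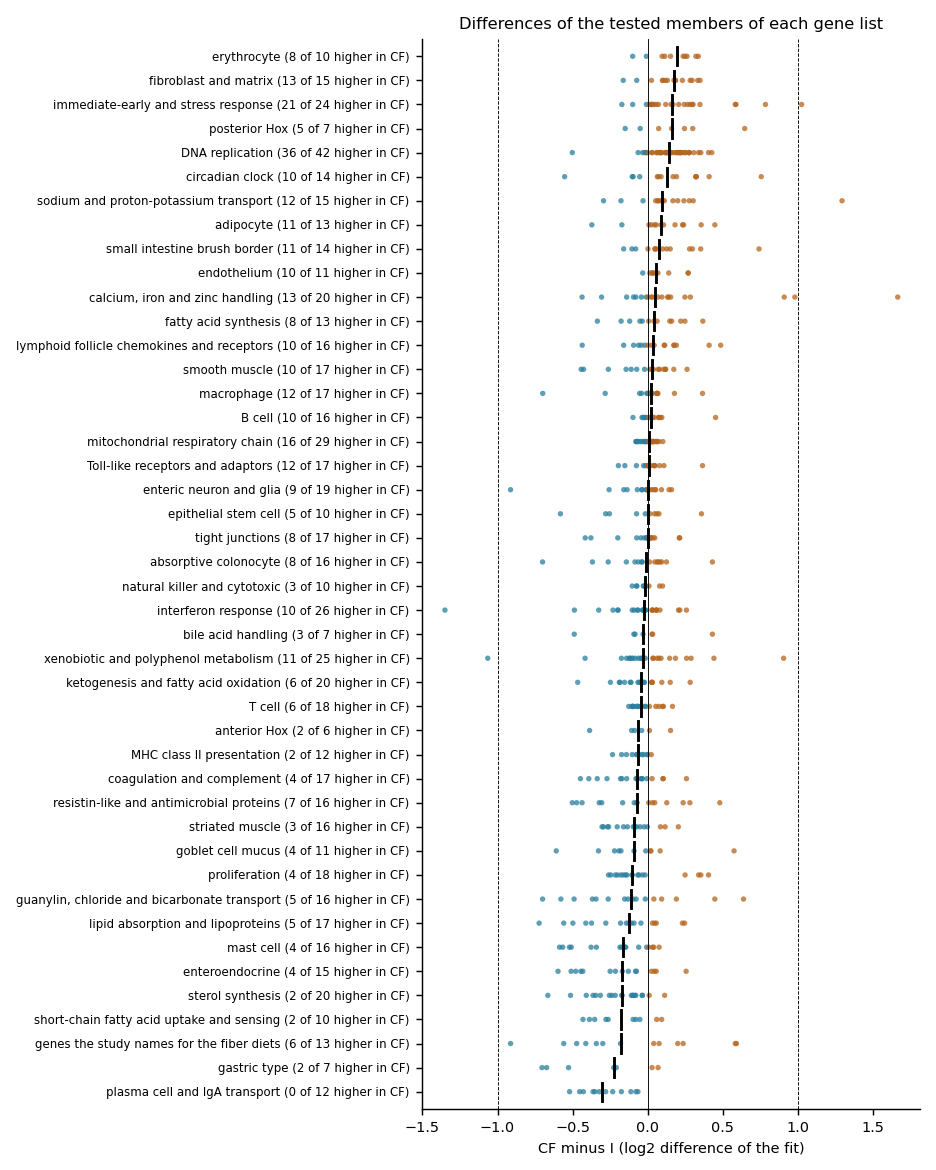
Fitted difference of CF over I (x axis, log2) for each tested gene of the gene lists on the y axis, with 1 point per gene (orange higher in CF, blue higher in I), a bar at the median and the count of genes higher in CF beside the name. Sterol synthesis, plasma cell and mast cell genes have medians of -0.17, -0.30 and -0.16, DNA replication and immediate-early genes medians of 0.14 and 0.16, and the respiratory chain one of 0.01.

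From the genes that the study names, 17 were put in a list here, and 13 of them were tested one by one with the exact two-sided permutation test of 4 against 4 rats, which cannot give a p below 0.0286. The study chose such genes on these samples, so the list is not independent of them. Mcpt1, a mast cell protease, had levels of 11.86, 11.80, 12.16 and 11.57 in CF and of 12.29, 12.44, 12.59 and 12.31 in I. The groups did not overlap, which gave the smallest exact p of 0.0286, or 0.371 after Benjamini-Hochberg adjustment over the 13 genes, and the fitted difference was -0.34 (SE 0.32). It came to -0.04 with array as a fixed term, -0.095 without CF rat 4, -0.21 without I rat 2 and -0.56 in the rank product. Tac4, a tachykinin, had levels of 7.22, 9.41, 6.93 and 7.28 in CF and of 8.20, 8.85, 7.72 and 8.99 in I, with CF rat 2 above every I rat and a difference of -0.91 (SE 0.55), or -1.49 without CF rat 2, -0.60 without CF rat 3 and -0.59 with posterior Hox and B cell levels as covariates. Serpina10, an inhibitor of coagulation proteases, had a difference of -0.18 (SE 0.81) that turned positive in several other settings. Its signal was well above background in only 3 of the 4 CF rats and 2 of the 4 I rats. The fitted differences of the other 10 genes ran from -0.56 for the fatty acid-binding protein Fabp1 to 0.59 for the secretoglobin Scgb1a1, neither of which turned sign in any setting, and all 12 besides Mcpt1 had adjusted permutation p-values of 0.681 or more.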

How the data were processed

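Per the labels, total RNA from the colon of 16 rats was labelled with Cy3 or Cy5 and hybridised to 8 two-colour arrays, and the authors deposited the Agilent Feature Extraction 10.7.3.1 intensity of each spot, with no normalization applied. The 8 columns of a normalised table carry names that match no label and were not used. Intensities (median signal and median background) were corrected with normexp (offset 50), normalised by spatial and intensity loess within arrays and Aquantile between arrays, and fitted as separate channels in limma 3.58.1 (R 4.3.3), with diet and dye as terms and array as a random block (correlation 0.42). Control spots and outlier spots were left out. A gene was represented by its brightest probe and kept if the scanner software marked it well above background in 4 or more rats, which left 19901 genes, 11922 with a symbol. Transcript accessions were matched to current symbols where RefSeq tables held them. P-values were adjusted by Benjamini-Hochberg. All 16 rats entered the fit. Median signals ran from 109.5 to 169 in Cy3 and from 302.5 to 426.5 in Cy5, and the number of arrays limits the precision. The test was run on simulated data first. Members and gene lists were chosen with earlier results of these data known, and 2 of the lists after values were seen here. Genes named are those at least 2-fold apart, the 6 separated genes with the smallest p in each direction, those the study names, key list members, the most variable genes, and some chosen after their values were seen. Alternatives in background correction, normalisation, filter, model, test, probe choice and left-out rats were run.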

Additional observations from a re-analysis of the deposited data

Results flagged for a closer look

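In 147 genes checked, 294 groups of 4 rats were examined, and in 20 of them 1 rat stood far from the other 3, where chance alone would mark about 5% of groups. The value given is the gap to the nearest rat over the range of the group. CF rat 2 stood apart, below the other CF rats, in Atp12a (0.973), NM_022388 (0.902), Hoxb13 (0.898), Sval1 (0.918) and Chst5 (0.829045), and above them in Tac4 (0.858) and Tff1 (0.851). CF rat 3 stood apart in Guca2b (0.974) and Myl9 (0.916), and CF rat 4 in Cd7 (0.927) and Irf1 (0.891). Among the I rats, I rat 1 stood apart in Irf1 (0.896), Dbp (0.846) and Cma1 (0.853), I rat 2 in Retnlb (0.875), I rat 3 in TC632019 (0.83) and Ahsp (0.842), and I rat 4 in Fam111a (0.867), Cldn7 (0.865) and Hba-a1 (0.857).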

How the results depend on the processing

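In every limma alternative except 1, 0 genes passed. The 2 arrays that pair a CF and an I rat, fitted alone, gave 1 gene (ENSRNOT00000066209). Rank product, the kind of test the methods name, gave 16 genes, 5 higher in CF and 11 in I, and 2215 (920 and 1295) without the 2-fold minimum, a setting chosen after seeing the data like the fit with odd arrays as a term and the fit without array 5. The rank product treated ratios that reuse the same rats as independent, so its counts do not bear the same limit on false positives as those of limma. The cause of the gap between the tests was not tested. The count of genes at least 2-fold apart was 41 with normexp offset 0, 94 with processed signals (median absolute difference 0.0911), 36 with array as a fixed term, 33 with the 8 CF and I signals alone, 83 with the 2 direct arrays alone and 35 with array set as a term. With normexp offset 0, the interval lay inside 2-fold for 18994 genes and inside 1.5-fold for 16124. With processed signals these counts were 17661 and 13484. Genes at an unadjusted p below 0.05 numbered 288 without a dye term and 1336 with the 8 signals alone, and 176 genes kept the diets apart without normalisation between arrays. Leaving out 1 rat at a time gave 0 genes, 265 (without I rat 2) to 1046 (without CF rat 2) at an unadjusted p below 0.05, 15 (without CF rat 4) to 55 (without CF rat 2) at least 2-fold apart, 19237 to 19419 inside 2-fold, 17414 to 18040 inside 1.5-fold, a median of 0.0569 to 0.0767, and 541 to 1237 separated genes, since fewer rats separate more easily. The labels give no replicate numbers shared between the diets, so the only paired fit is that of the 2 direct arrays above, where the gene that passed had an adjusted p of 0.038 in limma.

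Of the 13 tested genes picked from those the study names, 6 changed sign. Serpina10 came to 0.139 with offset 0, 0.347 with processed signals, 0.097 with posterior Hox and B cell covariates, 0.059 without array 5 and 0.133 in the rank product, and ran from -0.636 to 0.173 with 1 rat left out. Scnn1g came to -0.032 with array fixed, -0.016 with the covariates and -0.048 without array 5, and ran from -0.024 (without I rat 1) to 0.441. Atf3 ran from -0.02 (without CF rat 4) to 0.881. Retnlb came to 0.174 with array fixed and 1.028 on the 2 direct arrays, and ran from -1.511 to 0.616 (without CF rat 2). Mcpt4 came to -0.012 with the 8 signals alone, -0.022 on the direct arrays, -0.055 with array set, -0.021 without array 5 and -0.006 in the rank product, and ran from -0.128 to 0.451. Fcer1a came to -0.131 with processed signals, -0.009 with the 8 signals alone, -0.018 on the direct arrays and -0.003 in the rank product, and ran from -0.059 (without I rat 2) to 0.172.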
